A study of Mus musculus with 20 samples.

Results

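Cholesterol synthesis and its control by SREBP2 were followed through 8 genes (Hmgcs1, Sqle, Fdps, Idi1, Lss, Cyp51, Insig1, and Srebf2), which were found by their symbols among the 55401 genes of the count tables. RNA-seq covered 5 organs of female mice (heart, kidney, liver, spleen, and small intestine), with 2 WT and 2 Nsun6-KO libraries for each and 20 libraries in all. The mice were 8 weeks old. The KO strain was made by injecting Cas9 and guide RNAs into C57BL/6J zygotes to delete exons 3 and 4 of Nsun6, an RNA methyltransferase that makes 5-methylcytosine. The deletion was constitutive, so every cell of the KO mice carried it, and no transgene or Cre driver was involved. WT mice were the controls in every organ. The libraries of a group are separate samples in the labels, but the sources used here do not say whether 1 animal gave several organs.

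Cells make cholesterol from acetyl-CoA through mevalonate, isoprenoid pyrophosphates, squalene, and lanosterol. Hmgcs1 forms HMG-CoA in the cytosol, Idi1 isomerizes isopentenyl pyrophosphate, and Fdps makes farnesyl pyrophosphate, which also feeds the synthesis of ubiquinone, dolichol, and prenyl groups. Sqle oxidizes squalene in the first oxygen-dependent step, Lss closes the sterol rings to form lanosterol, and Cyp51 removes a methyl group from lanosterol. Srebf2 encodes SREBP2, the membrane-bound transcription factor that leaves the endoplasmic reticulum when sterols are low and activates most genes of this pathway. Insig1 holds the SREBP complex in the endoplasmic reticulum when sterols are high, and is itself a target of SREBP. The liver is known for high and diet-dependent cholesterol synthesis, and the intestine for both synthesis and uptake of cholesterol.

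Promoters are shown for Hmgcs1, the earliest enzyme among the members, and for Srebf2, its regulator, because only these members held the letters TCACNCCA, a form of the sterol regulatory element, among the promoters searched. Each sequence is the RefSeq promoter of GRCm38.p6 from 250 bases before to 50 bases after the start that RefSeq gives the gene, which is not the same base as the start in the count tables given below, read 5′ to 3′ on the plus strand, which is the strand of both genes. Capitals mark the match. The Hmgcs1 promoter is chr13:119690101-119690400 and the Srebf2 promoter is chr15:82147019-82147318.
Hmgcs1: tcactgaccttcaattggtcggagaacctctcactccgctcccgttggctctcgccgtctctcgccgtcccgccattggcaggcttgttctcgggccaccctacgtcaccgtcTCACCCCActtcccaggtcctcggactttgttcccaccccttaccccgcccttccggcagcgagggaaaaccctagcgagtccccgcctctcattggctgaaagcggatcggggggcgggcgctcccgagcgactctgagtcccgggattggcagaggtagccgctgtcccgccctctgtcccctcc
Srebf2: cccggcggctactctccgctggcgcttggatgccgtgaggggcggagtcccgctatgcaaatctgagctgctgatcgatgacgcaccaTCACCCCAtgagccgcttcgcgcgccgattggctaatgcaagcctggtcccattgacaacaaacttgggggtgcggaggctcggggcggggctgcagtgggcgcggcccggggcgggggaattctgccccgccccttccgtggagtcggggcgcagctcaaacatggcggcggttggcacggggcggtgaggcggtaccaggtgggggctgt
The match was TCACCCCA in both, and it lay 137 bases before the RefSeq start of Hmgcs1 and 162 bases before that of Srebf2. Promoters were found for 6 of the 8 members. TCACNCCA, searched on both strands, occurred in 2 of these 6 and in 4.36% of all 32851 promoters of the same length. The letters CCAAT, which NF-Y binds beside SREBP in many sterol genes, occurred in 6 of 6 members and in 37.4% of all promoters. GGGCGG, a GC box, occurred in 6 of 6 members and in 35.7% of all promoters, and CACGTG, an E-box, in Insig1 alone of the 6 and in 7.15% of all. Among 12 further enzymes of cholesterol synthesis, 11 had a promoter, of which 1 (Msmo1) held TCACNCCA, 10 held CCAAT, 10 held GGGCGG, and 3 (Hsd17b7, Sc5d, and Dhcr7) held CACGTG. These are matches of letters in this window.

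In GRCm38, the coordinates of the count tables place Hmgcs1 (ENSMUSG00000093930) at chr13:119690379-119708260, Idi1 (ENSMUSG00000058258) at chr13:8885501-8892451, and Fdps (ENSMUSG00000059743) at chr3:89093588-89101959. Sqle (ENSMUSG00000022351) lies at chr15:59315077-59331192, Lss (ENSMUSG00000033105) at chr10:76531588-76557138, and Cyp51 (ENSMUSG00000001467) at chr5:4081145-4104746. Insig1 (ENSMUSG00000045294) lies at chr5:28071363-28078662 and Srebf2 (ENSMUSG00000022463) at chr15:82147181-82205379. Fdps and Cyp51 are on the minus strand and the other 6 on the plus strand. Counts were summed over the exons of each gene, and some exons are not unique. Of the exon bases, 26.7% in Fdps overlap Gm43738 on the same strand. On the opposite strand, 12.1% in Hmgcs1 overlap Gm48342, 9.22% in Idi1 overlap Gm48574, 3.76% in Cyp51 overlap Akap9, and 3.53% in Lss overlap 4930483K19Rik. Of the 50-base stretches of Idi1, 30.5% occur in other genes too, against 13.6% for Hmgcs1 and 11.7% for Fdps. Levels of these genes are uncertain to that extent, and they are best compared between libraries.

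Library totals lay between 15897446 and 44508197 counts (median 28513950). Levels below are CPM, counts scaled to an equal library total with TMM normalization over the 20 libraries, unless TPM are named. TPM divide by gene length and carry no TMM scaling, so the order of organs can differ between these scales. In the order WT 1, WT 2, KO 1, and KO 2, Nsun6 itself had 9.63, 6.09, 9.67, and 5.16 CPM in the small intestine and 7.23, 4.79, 3.95, and 4.54 CPM in the liver. It had 6.10, 4.39, 4.04, and 6.62 CPM in the spleen. In the kidney its levels were 5.57, 5.98, 3.95, and 3.33 CPM, and in the heart they were 6.95, 6.70, 5.998, and 5.53 CPM. WT and KO did not overlap in the liver, kidney, and heart, where KO was lower, and they overlapped in the small intestine and spleen. Counts of the whole gene do not check the genotype, because the deletion leaves most exons in place.

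Each organ expressed its own defining markers. Hepatocyte genes summed to 191170, 378806, 333092, and 328391 CPM in the liver libraries (WT 1, WT 2, KO 1, and KO 2), led by Alb, so that liver WT 1 stood below the others. Cardiomyocyte genes summed to between 56035 and 84378 CPM in the heart, and kidney tubule and glomerulus genes to between 23315 and 46426 CPM in the kidney. Several libraries held markers of other tissue. Spleen WT 2 had 3466 CPM of hepatocyte genes, against 6.62 CPM in spleen WT 1, 123.5 in KO 1, and 172.4 in KO 2. Small intestine KO 1 had 397 CPM of cardiomyocyte genes, against 7.61 to 25.6 CPM in the other small intestine libraries, and its smooth muscle genes summed to 2450 CPM against 279.1 in WT 1, 440.6 in WT 2, and 1351 in KO 2. Liver WT 1 had 25.995 CPM of cardiomyocyte genes, led by Myl2, against 4.52 in WT 2, 1.43 in KO 1, and 1.39 in KO 2. The small intestine libraries numbered 1 and 2 held different regions of the gut, as described below.

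In CPM, transcripts of the pathway were most abundant in the liver, which had the highest mean level of 7 of the 8 members, and lowest in the heart or spleen. The order depended on the scale. In TPM, the mean of Cyp51 was highest in the kidney (257, against 184 in the liver). That of Sqle was highest in the small intestine (56.8, against 52.1 in the liver), and the other members kept their highest organ. The ratios that follow are of CPM. The mean over the 4 liver libraries exceeded that of the lowest organ by 22.97 times for Hmgcs1, 90.8 times for Sqle, 71.1 times for Idi1, 25.4 times for Lss, 25.04 times for Cyp51, and 48.6 times for Insig1. For Srebf2 the small intestine was highest, and the ratio of highest to lowest organ was only 4.27.

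Hmgcs1, the earliest enzyme of the pathway among the members, had 989.8, 342.8, 1055, and 1123 CPM in the liver (WT 1, WT 2, KO 1, and KO 2, the order used throughout). In the small intestine it had 852.9, 186.9, 682.2, and 158.4 CPM, and in the kidney 237.8, 531.0, 349.1, and 363.5 CPM. The spleen had 42.9, 40.8, 39.0, and 30.2 CPM, and the heart 40.1, 37.9, 43.0, and 37.6 CPM. Liver, small intestine, and kidney overlapped, and every one of their libraries was above every library of the spleen and heart. In the order liver, small intestine, kidney, heart, and spleen, only kidney and heart differed among neighbours (log2 fold change 3.20, SE 0.53, adjusted p = 0.000222 in edgeR's quasi-likelihood test).

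Idi1 was also highest in the liver, with 188.3, 166.8, 427.4, and 496.8 CPM. The small intestine had 163.6, 28.7, 153.1, and 12.9 CPM. Kidney libraries lay between 14.6 and 21.99 CPM, spleen libraries between 7.83 and 12.2 CPM, and heart libraries between 3.32 and 5.77 CPM. All 4 liver libraries were above all others. Small intestine was below liver (log2 fold change −1.68, SE 0.60, adjusted p = 0.0335) and above kidney (2.30, SE 0.62, adjusted p = 0.00752), whereas kidney and spleen (adjusted p = 0.265) and spleen and heart (adjusted p = 0.106) did not pass the threshold.

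Fdps was counted mainly in the liver, with 167 to 908 counts, and in the small intestine libraries numbered 1, with 588 and 471 counts, and every other library held at most 51. The liver had 35.9, 8.79, 19.7, and 19.6 CPM and the small intestine 16.8, 1.05, 17.1, and 1.22 CPM. The spleen had 0.885, 1.26, 0.571, and 0.704 CPM. In the kidney the values were 1.504, 0.127, 0.747, and 1.18 CPM, where the second rests on 3 counts, and the heart libraries held 1, 9, 1, and 21 counts. The small intestine and the kidney, neighbours in the order, differed (log2 fold change 3.36, SE 0.97, adjusted p = 0.0113), and the other neighbours did not pass the threshold (adjusted p = 0.28, 0.962, and 0.183).

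In the sterol branch, Sqle had 175.4, 101.2, 209.7, and 216.8 CPM in the liver and 193.4, 28.2, 204.4, and 22.98 CPM in the small intestine. Kidney libraries had 26.003, 68.9, 43.9, and 46.5 CPM of Sqle, the spleen 10.2 to 14.6 CPM, and the heart 1.29 to 2.32 CPM. Spleen was below kidney (log2 fold change −1.94, SE 0.62, adjusted p = 0.0174) and above heart (2.63, SE 0.66, adjusted p = 0.00407), with no overlap in either case, and liver, small intestine, and kidney did not differ past the threshold from their neighbours (adjusted p = 0.437 and 0.0892). Lss had 205.1, 52.1, 135.7, and 136.4 CPM in the liver, 76.9, 14.2, 71.9, and 11.6 CPM in the small intestine, and 24.1, 9.97, 16.8, and 16.0 CPM in the kidney. Spleen libraries had 7.05 to 8.40 CPM of Lss and heart libraries 3.30 to 6.82 CPM. For Lss, the liver exceeded the small intestine (log2 fold change of small intestine over liver −1.59, SE 0.60, adjusted p = 0.0411), and no other neighbours in the order differed past the threshold.

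Of all members, Cyp51 had the smallest difference between liver and kidney. It had 210.5, 563.9, 389.3, and 499.7 CPM in the kidney and 410.4, 311.6, 604.8, and 668.9 CPM in the liver, and these ranges overlapped. The small intestine had 382.1, 76.6, 500.4, and 61.0 CPM, the spleen 28.0 to 35.7 CPM, and the heart 18.1 to 23.3 CPM. Liver and kidney differed by a log2 fold change of 0.24 (SE 0.54, adjusted p = 0.812), kidney and small intestine did not differ past the threshold either (adjusted p = 0.331), and small intestine exceeded spleen by 3.04 (SE 0.59, adjusted p = 0.000665). Per length, Cyp51 was the most abundant member in the kidney, with a mean of 257 TPM ± 62.0 (SD, n = 4), followed by Hmgcs1 with 221 TPM ± 24.3.

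Insig1, the sterol-dependent brake on SREBP, had the largest log2 difference between liver and small intestine of the 8 members. It had 1506, 320.3, 1151, and 928.6 CPM in the liver and 174.0, 249.8, 165.4, and 340.7 CPM in the small intestine. Kidney libraries had 39.0, 23.7, 30.3, and 37.7 CPM, spleen libraries 18.3 to 21.3 CPM, and heart libraries 17.9 to 26.4 CPM. Liver WT 2 was the only liver library within the range of the small intestine. Small intestine was below liver (log2 fold change −2.06, SE 0.39, adjusted p = 0.000535) and above kidney (2.87, SE 0.40, adjusted p = 4.68e-05), and kidney, heart, and spleen did not differ past the threshold from their neighbours (adjusted p = 0.211 and 0.946). Per length, Insig1 led the members in the liver with 539 TPM ± 335, ahead of Hmgcs1 with 317 TPM ± 139 (SD, n = 4).

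Srebf2 was the most even member. The small intestine had 124.2, 66.5, 152.7, and 60.5 CPM, the spleen 67.0, 53.0, 62.6, and 48.1 CPM, and the liver 53.8, 52.0, 50.2, and 59.3 CPM. The kidney had 45.8, 19.5, 44.97, and 39.7 CPM and the heart 19.99, 30.6, 22.1, and 21.8 CPM. Neighbouring organs overlapped in this order except for the liver and kidney. The small intestine exceeded the spleen (log2 fold change 0.83, SE 0.31, adjusted p = 0.0379) and the liver (0.91, SE 0.31, adjusted p = 0.0259). The neighbours liver and spleen, liver and kidney, and kidney and heart did not pass the threshold (adjusted p = 0.879, 0.18, and 0.123). Within the spleen, Srebf2 with 30.5 TPM ± 5.19 stood next to Hmgcs1 with 31.6 TPM ± 5.59 (SD, n = 4). Within the liver, Srebf2 had 12.3 TPM ± 1.83 and Hmgcs1 317 TPM ± 139. These TPM carry no TMM scaling and are given to compare genes within an organ. In CPM, Srebf2 did not differ between spleen and liver, as given above.

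**Figure D1:**
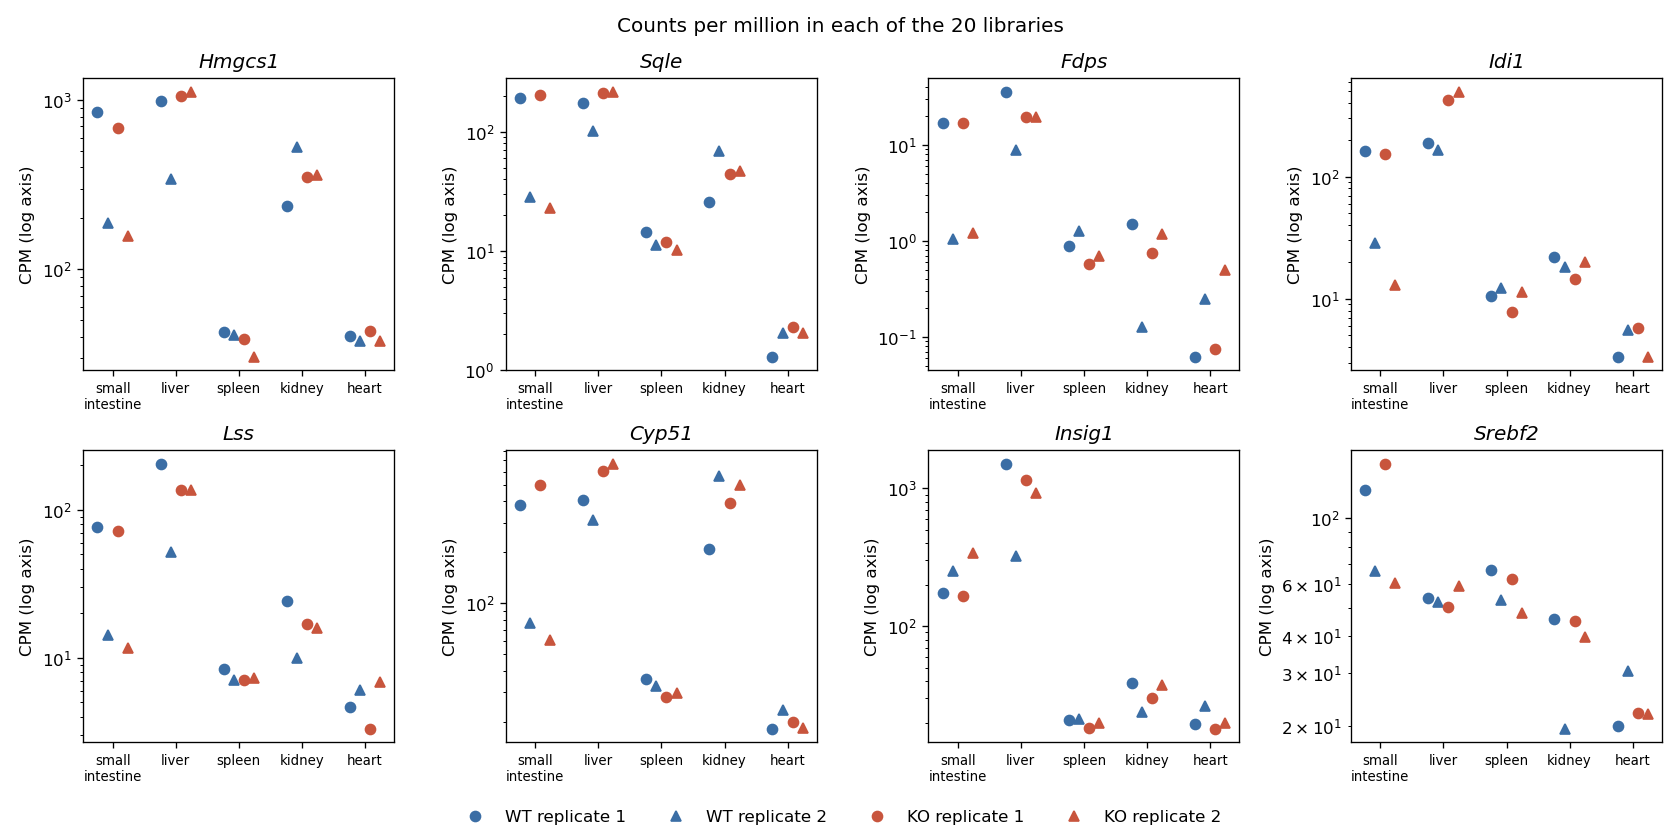
CPM on a log axis for each of the 8 members in the 20 libraries, with WT in blue, KO in red, replicates numbered 1 as circles, and replicates numbered 2 as triangles. In the small intestine the circles lie above the triangles for 7 of the 8 members, and Insig1 has the opposite order.

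Counted over pairs of organs in 1 fit of all libraries at an adjusted p under 0.05, the liver was higher than the spleen for 7 of 8 members, where 25.4% of all genes tested were called in that direction. It was higher than the heart for 8 of 8 (all genes 22%) and higher than the kidney for 5 of 8, namely Insig1, Fdps, Idi1, Lss, and Sqle (all genes 15.7%). Small intestine was higher than spleen for 8 of 8 (all genes 26%), higher than heart for 8 of 8 (all genes 28.8%), and higher than kidney for 4 of 8, namely Fdps, Insig1, Idi1, and Srebf2 (all genes 24.6%). These calls pooled libraries numbered 1 and 2, which held different regions of the gut. In number 2, Fdps (1.05 and 1.22 CPM) lay within the kidney range (0.127 to 1.504 CPM). Idi1 was below every kidney library in KO 2 (12.9 CPM) and above them in WT 2 (28.7 CPM). Insig1 and Srebf2 in number 2 were above every kidney library. Fdps and Srebf2 in number 2 lay within the spleen range, and the other members were above it. Between small intestine and liver, Srebf2 alone was higher in the small intestine (all genes 27.6%), and Insig1, Idi1, and Lss were lower there (all genes 21.7%). This comparison depended on single libraries. It called 7 members without small intestine WT 1 (all genes in either direction 42.7%) or without small intestine KO 1 (42.6%), and 2 without small intestine WT 2 (43.2%). It called 1 without liver WT 1 (40.1%) or liver KO 1 (39.5%), and 2 without liver WT 2 (40.1%) or liver KO 2 (39.3%).

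Spleen was below kidney for Cyp51, Hmgcs1, and Sqle (3 of 8, all genes 28.6%), and above heart for Sqle and Srebf2 (2 of 8, all genes 29.3%). Kidney was above heart for 5 of 8, namely Cyp51, Sqle, Hmgcs1, Idi1, and Lss (all genes 21%), and for 3 of 8 when kidney WT 1, kidney KO 2, heart WT 1, or heart KO 2 was left out (all genes in either direction 39.1%, 32.4%, 33%, and 32.6%). Leaving out spleen WT 2, the library with liver transcripts, left the count of 7 between liver and spleen as it was (all genes in either direction 47.9%). In bulk RNA, fewer cells of a type and less RNA per cell cannot be told apart.

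The 12 other enzymes of the pathway had a similar order of organs. Of these, 12 were higher in the liver than in the spleen and 12 higher than in the heart, and 11 were higher than in the kidney. Mvd, which decarboxylates mevalonate pyrophosphate, was the exception in the kidney (log2 fold change of liver over kidney 1.42, adjusted p = 0.078). Sc5d, a sterol desaturase, had the largest difference between liver and kidney (4.56, adjusted p = 2.81e-08), with 1941, 781.7, 1375, and 1261 CPM in the liver and 52.7 to 63.4 CPM in the kidney. Small intestine was lower than liver for 8 of 12, and Mvk, Mvd, Fdft1, and Msmo1 did not pass the threshold there. Ebp, a sterol isomerase, reached 178.4 CPM in the kidney.

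Over the 20 libraries, the genes whose log2 CPM was most like the mean of the members included 2 of the other enzymes of the pathway. Pearson's r was 0.975 for Msmo1 and 0.971 for Tm7sf2, among 23151 genes ranked. Nadk (0.957), Zfand2b (0.945), Aacs, which activates acetoacetate for lipid synthesis (0.944), and Hsd17b2 (0.942) also ranked in the first 10. Of the 12 other enzymes, 7 ranked in the first 100. Libraries of an organ are not independent points, so these values describe largely the differences between organs.

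Within the members, r of each gene with the mean of the other members over the 20 libraries was between 0.832 (Insig1) and 0.969 (Lss), except for Srebf2 with 0.588. After the mean of each organ and genotype had been subtracted, r was 0.929 for Lss, 0.871 for Idi1, 0.853 for Sqle, 0.837 for Hmgcs1, 0.828 for Fdps, 0.816 for Cyp51, and 0.732 for Srebf2. Insig1 had −0.14. With 2 libraries a group, these deviations are mirror images within each group. Groups whose libraries differ more weigh more in r. The median log2 ratio of number 2 over number 1 for the members was −2.38 in small intestine WT, −2.83 in small intestine KO, and −1.16 in liver WT. Elsewhere it lay between −0.49 (kidney WT) and 0.52 (heart WT). In kidney WT the members went opposite ways, from −3.02 for Fdps to 1.42 for Cyp51.

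Small intestine libraries split by replicate number. Both libraries numbered 1, WT and KO, had higher levels than both libraries numbered 2 for Hmgcs1, Sqle, Fdps, Idi1, Lss, Cyp51, and Srebf2. Fdps was 14.6 times lower in number 2 (log2 fold change −3.86, SE 0.40, adjusted p = 0.0288), Idi1 8.04 times (−3.01, SE 0.32, adjusted p = 0.0305), and Sqle 7.66 times (−2.94, SE 0.21, adjusted p = 0.0166). Cyp51 was 6.27 times lower (−2.65, SE 0.27, adjusted p = 0.0286), Lss 5.68 times (−2.51, SE 0.20, adjusted p = 0.0198), and Hmgcs1 4.34 times (−2.12, SE 0.23, adjusted p = 0.0305). Srebf2 was 2.13 times lower (−1.09, SE 0.20, adjusted p = 0.0764). Insig1 ran the other way without passing the threshold (0.81, SE 0.24, adjusted p = 0.174). The test was edgeR's with genotype as a covariate and an adjusted p under 0.1. It called 7 of 8 members lower in number 2, against 3.28% of all genes lower and 4.88% higher. The count was 4 without small intestine KO 2, in a fit of all libraries that called 3.82% of all genes. This contrast was chosen because earlier results on these counts had shown the split.

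The numbers also separated regions of the gut, and the labels give them no meaning. Markers of the distal intestine (Fabp6, Slc10a2, and Fgf15) summed to 9248 and 10291 CPM in WT 1 and KO 1, and to 4.76 and 8.54 CPM in WT 2 and KO 2, and all 3 were called lower in number 2. Fabp6, the ileal bile acid carrier, had 6680 and 6251 CPM in number 1 and 0.234 and 0.407 CPM in number 2. The 7 markers of the proximal intestine were all called higher in number 2, with sums of 248.9 and 131.2 CPM against 4863 and 5588 CPM. Pdx1, a marker of the duodenum, was at 0 counts in both number 1 libraries. General epithelial markers summed to 10050, 13898, 11781, and 12473 CPM in WT 1, WT 2, KO 1, and KO 2. Of these 6, Alpi, the intestinal alkaline phosphatase, was called higher in number 2 (3.83, adjusted p = 0.0584), and the other 5 were not called, with Epcam and Krt8 lower in both number 2 libraries. Proliferation genes summed to 517.5, 123.2, 200.7, and 120.8 CPM. Fat transcripts moved with the number too. Adiponectin (Adipoq) had 12.5 and 8.91 CPM in WT 1 and KO 1, and 2 and 0 counts in WT 2 and KO 2. Of 6 adipocyte markers 5 were tested, and Adipoq, Cfd, Retn, and Plin1 were called lower in number 2, whereas Cidec, a lipid droplet protein and the most abundant of the list in WT 2, KO 1, and KO 2, was called higher. The list summed to 70.1, 163.8, 58.4, and 160.7 CPM in WT 1, WT 2, KO 1, and KO 2. Its part in the values of the members and of the lipogenic genes was not tested. Region, replicate number, and any other difference between these samples cannot be told apart.

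**Figure D2:**
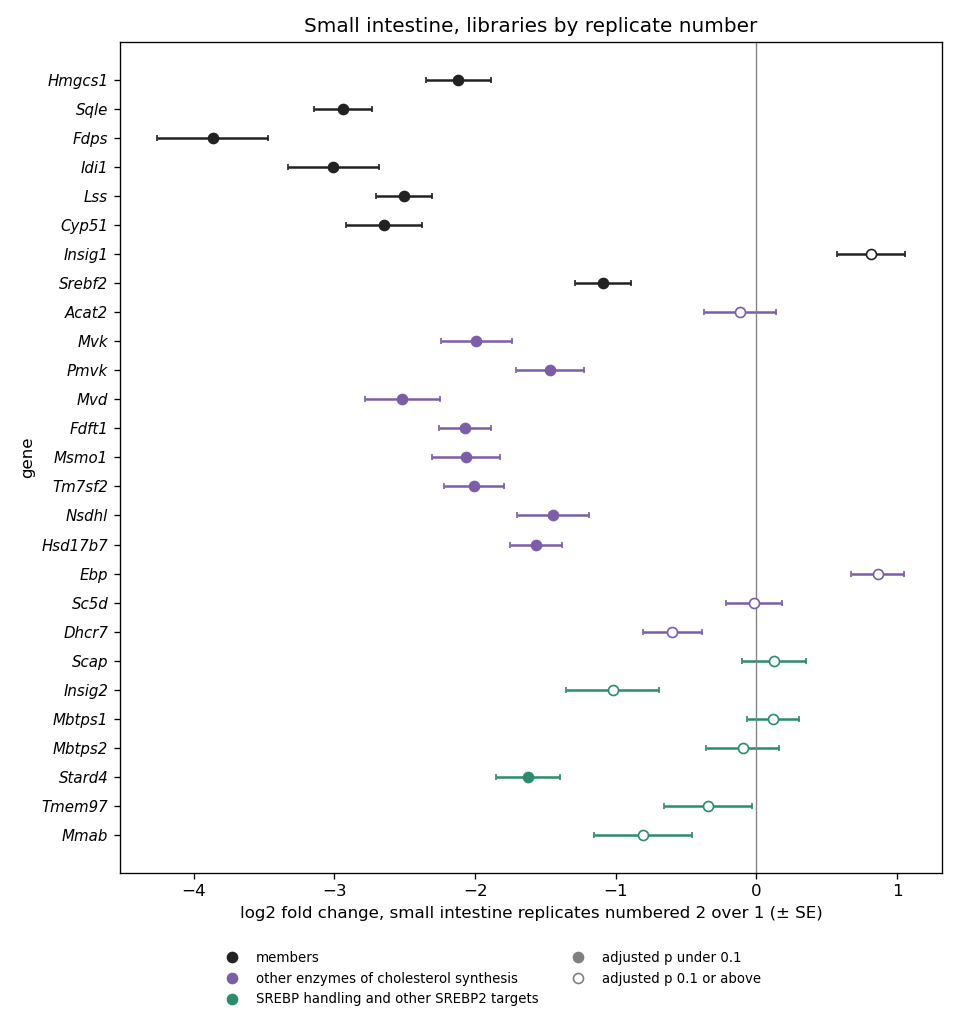
Log2 fold change of small intestine libraries numbered 2 over those numbered 1, with SE, for the members, the other enzymes of cholesterol synthesis, and genes of SREBP handling. Filled points passed an adjusted p of 0.1, and all filled points lie left of 0.

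Of the 12 other enzymes, 8 were called lower in number 2 as well. They ran from Mvd (−2.52, adjusted p = 0.0302) and Fdft1, squalene synthase (−2.07, adjusted p = 0.0234), to Pmvk (−1.47, adjusted p = 0.064) and Nsdhl (−1.45, adjusted p = 0.0739). Acat2, Ebp, Sc5d, and Dhcr7 did not pass. Sc5d was level, with 236.5, 241.4, 273.0, and 250.8 CPM, and Ebp had 73.5, 122.3, 69.5, and 132.3 CPM (log2 fold change 0.86, adjusted p = 0.102). Of 7 genes of SREBP handling, Stard4, a sterol carrier protein, was called lower (−1.62, adjusted p = 0.048). Scap, which escorts SREBP, had 0.12 (SE 0.23, adjusted p = 0.802). Among 11 genes of SREBP1 and lipogenesis, Scd1 (−3.91), Acaca (−2.54), and Fasn (−1.84) were called lower, and Srebf1 had 1.24 (adjusted p = 0.346). None of the 6 genes of the non-sterol isoprenoid branch was called. Of 6 genes of cholesterol uptake and storage, Scarb1 (5.19) and Lipa (2.49) were called higher in number 2, and of 8 genes of the LXR list, Mylip, which degrades lipoprotein receptors, was called lower (−2.49). Of the 6 fasting genes tested, Pdk4, a brake on glucose oxidation (4.63), and Pck1 (1.97) were called higher in number 2. Of 15 clock genes, Hlf (2.95), Per1 (2.17), Bhlhe40 (2.06), and Per2 (1.79) were called higher.

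KO was compared with WT within each organ at an adjusted p under 0.1, and no member was called in any organ. Across all genes, edgeR called 0.223% in the spleen, 0.0509% in the liver, and 0% in each of the 3 other organs. DESeq2, run as an alternative, called 2 members in the liver (all genes 0.402%) and 0 in each other organ, where its shares of all genes were 2.34% (spleen), 0.334% (small intestine), 0.0107% (heart), and 0% (kidney). At an unadjusted p under 0.05 in edgeR, there were 3 members in the liver, where 4.7% of all genes passed, and 0 elsewhere. The shares of all genes elsewhere were 5.14% for the spleen, 2.39% for the small intestine, 0.703% for the heart, and 0.638% for the kidney. The spread between replicates, as the biological coefficient of variation, was lowest in the liver (0.238), followed by the spleen (0.31), heart (0.322), kidney (0.457), and small intestine (0.602).

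In the liver, 7 of 8 members had a log2 fold change above 0, with a median of 0.42 where the median of all genes was 0.005. Idi1 was farthest from 0. Its 2 KO libraries (427.4 and 496.8 CPM) were above both WT libraries (188.3 and 166.8 CPM), with a log2 fold change of 1.39 (SE 0.20, adjusted p = 0.132). DESeq2 gave 1.38 with an adjusted p of 6.6e-07. Cyp51 had 0.83 (SE 0.22, adjusted p = 0.871) and also did not overlap, with 604.8 and 668.9 CPM in KO against 410.4 and 311.6 CPM in WT. DESeq2 called it with an adjusted p of 0.093. Sqle had 0.64 (SE 0.26) and Hmgcs1 0.73 (SE 0.45), both without overlap and with an adjusted p of 0.999. Both depended on the WT library, with 0.31 for Sqle and 0.17 for Hmgcs1 without WT 2, and 1.06 and 1.65 without WT 1. Genotypes did not overlap for 4 of 8 members and for 33% of all genes in the liver.

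The remaining members overlapped in the liver, with WT 1 among or above the KO libraries. Insig1 had 0.21 (SE 0.71), Lss 0.10 (SE 0.63), Srebf2 0.06 (SE 0.18), and Fdps −0.17 (SE 0.63), each with an adjusted p of 0.999. Liver WT 2 was the lowest of the 4 libraries for all members except Srebf2. The ratio of WT 1 to WT 2 was 4.70 for Insig1, 4.08 for Fdps, 3.94 for Lss, and 2.89 for Hmgcs1, and 1.73 for Sqle, 1.32 for Cyp51, 1.13 for Idi1, and 1.03 for Srebf2. Between the KO libraries the largest ratio was 1.24, for Insig1. Liver WT 2 was also the lowest for all 12 other enzymes.

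The liver calls rested on which WT library was used. Without liver WT 1, edgeR called 7 of 8 members and 1.83% of all genes, and without liver WT 2 it called 2 members and 1.87% of all genes. It called 0 members without either KO library, with 0.0241% of all genes without KO 1 and 0.0121% without KO 2. In these fits a group with 1 library was assumed to vary like the other. Idi1 was called in both cases, with an adjusted p of 0.00317 without WT 1 and 0.00798 without WT 2, and its log2 fold change stayed between 1.30 and 1.46. That of Insig1 moved from 1.68 without WT 1 to −0.50 without WT 2, and that of Lss from 1.37 to −0.56. Fasting genes, led by Pck1, summed to 3373, 5422, 3574, and 5479 CPM, with WT 1 lowest, and hepatocyte genes were lowest in WT 1 too. Of 5 cardiomyocyte genes 4 were tested in the liver, all below 0 in KO, from −4.08 (SE 0.96) for Actc1 to −2.28 (SE 0.75) for Tnni3, with an unadjusted p under 0.05 and none called. Their part in the result was not tested. Between the 20% of genes with the highest GC content and the 20% with the lowest, the median log2 deviation of the liver libraries from their organ differed by only −0.06 to 0.08.

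**Figure D3:**
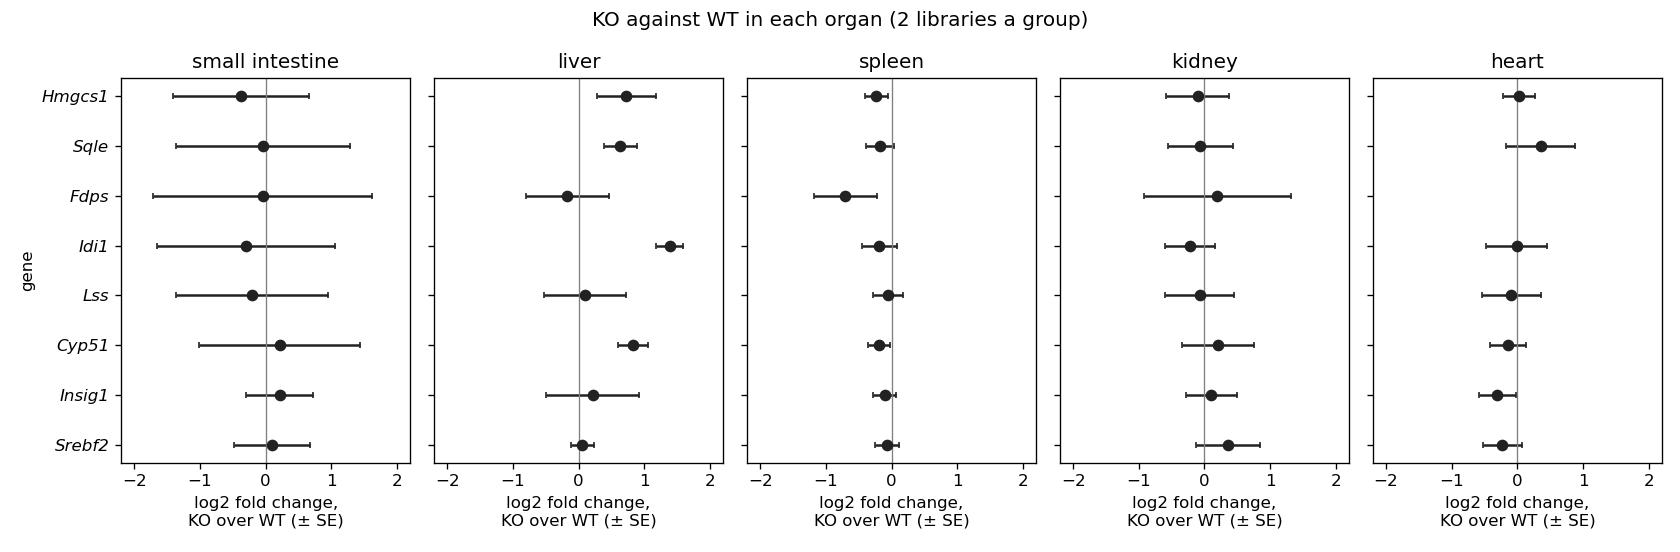
Log2 fold change of KO over WT with SE for the members in the 5 organs, 2 libraries a group. Liver Idi1 at 1.39 is the point farthest from 0, and Fdps was not tested in the heart.

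Of the 12 other enzymes, 11 were above 0 in the liver, with a median of 0.46, and none was called. Nsdhl (0.85, SE 0.22), Fdft1 (0.84, SE 0.23), Mvk (0.83, SE 0.29), and Msmo1 (0.62, SE 0.26) had an unadjusted p under 0.05, and their adjusted p was at least 0.871. Mvd had the highest value (0.85, SE 0.67) and Sc5d the lowest (−0.03, SE 0.39). Fdft1 had 196.4, 137.0, 268.5, and 326.1 CPM, so that KO was above WT in all libraries, whereas Mvd had 68.7, 15.7, 76.1, and 74.7 CPM with WT 2 apart.

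In the spleen, all 8 members were below 0, from −0.70 (SE 0.49) for Fdps to −0.06 (SE 0.23) for Lss, with a median of −0.18. Hmgcs1 had −0.23 (SE 0.17), Cyp51 −0.19 (SE 0.16), Idi1 −0.18 (SE 0.27), and Sqle −0.18 (SE 0.21), and no adjusted p was under 0.999. KO libraries were below both WT libraries for Fdps, Cyp51, Hmgcs1, and Insig1, 4 of 8, where 31.6% of all genes did not overlap. Erythroid genes moved in these libraries. They summed to 596 and 676.6 CPM in WT and to 1785 and 1934 CPM in KO, led by Slc4a1, and 4 of 6 were called higher in KO. Proliferation genes summed to 571.3 and 750 CPM in WT and 1552 and 1482 CPM in KO. Hepatocyte genes, high in spleen WT 2 as given above, were 7 below 0 of 7 in KO and none was called. Without spleen WT 2, the 8 members were still below 0, from −0.40 for Fdps to −0.044 for Idi1. Leaving out another library turned some above 0, namely Idi1 without KO 1 (0.057) and Lss without WT 1 (0.036). Srebf2 turned above 0 without KO 2 (0.082) and also without WT 1. All 6 adipocyte markers were above 0 in KO, from 1.21 (SE 0.50) for Retn to 2.89 (SE 0.63) for Lep, and none was called. They summed to 22.2 and 6.99 CPM in WT and 48.3 and 41.4 CPM in KO, led by Cfd. The part of the erythroid, proliferation, and adipocyte genes in the lower values of the members was not tested.

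In the kidney, members lay on both sides of 0, 4 above and 4 below, from −0.22 (SE 0.38) for Idi1 to 0.36 (SE 0.48) for Srebf2. Genotypes overlapped for every member, where 20.8% of all genes did not overlap. The 2 WT libraries lay at opposite ends. WT 2 was the highest library for Cyp51, Hmgcs1, and Sqle, at 2.68, 2.23, and 2.65 times WT 1, and the lowest for Fdps, Insig1, Lss, and Srebf2. WT 1 exceeded WT 2 by 1.65 times for Insig1, 2.42 times for Lss, and 2.35 times for Srebf2. No member was called from all libraries, 5 were called without kidney WT 1 (all genes 28.9%), and 2 without kidney WT 2 (all genes 4.84%).

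Kidney WT 2 also differed from the others by GC content. By the same measure, highest minus lowest 20% of genes, it had a value of −1.0 (log2), against 0.42 in WT 1, 0.47 in KO 1, and 0.12 in KO 2. The longest transcripts of the members have a GC content of 41.9% for Idi1, 43.1% for Hmgcs1, 46.2% for Cyp51, 48.2% for Insig1, 48.6% for Sqle, 48.7% for Lss, 50.6% for Fdps, and 57.9% for Srebf2. Its part in the kidney values was not tested.

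**Figure D4:**
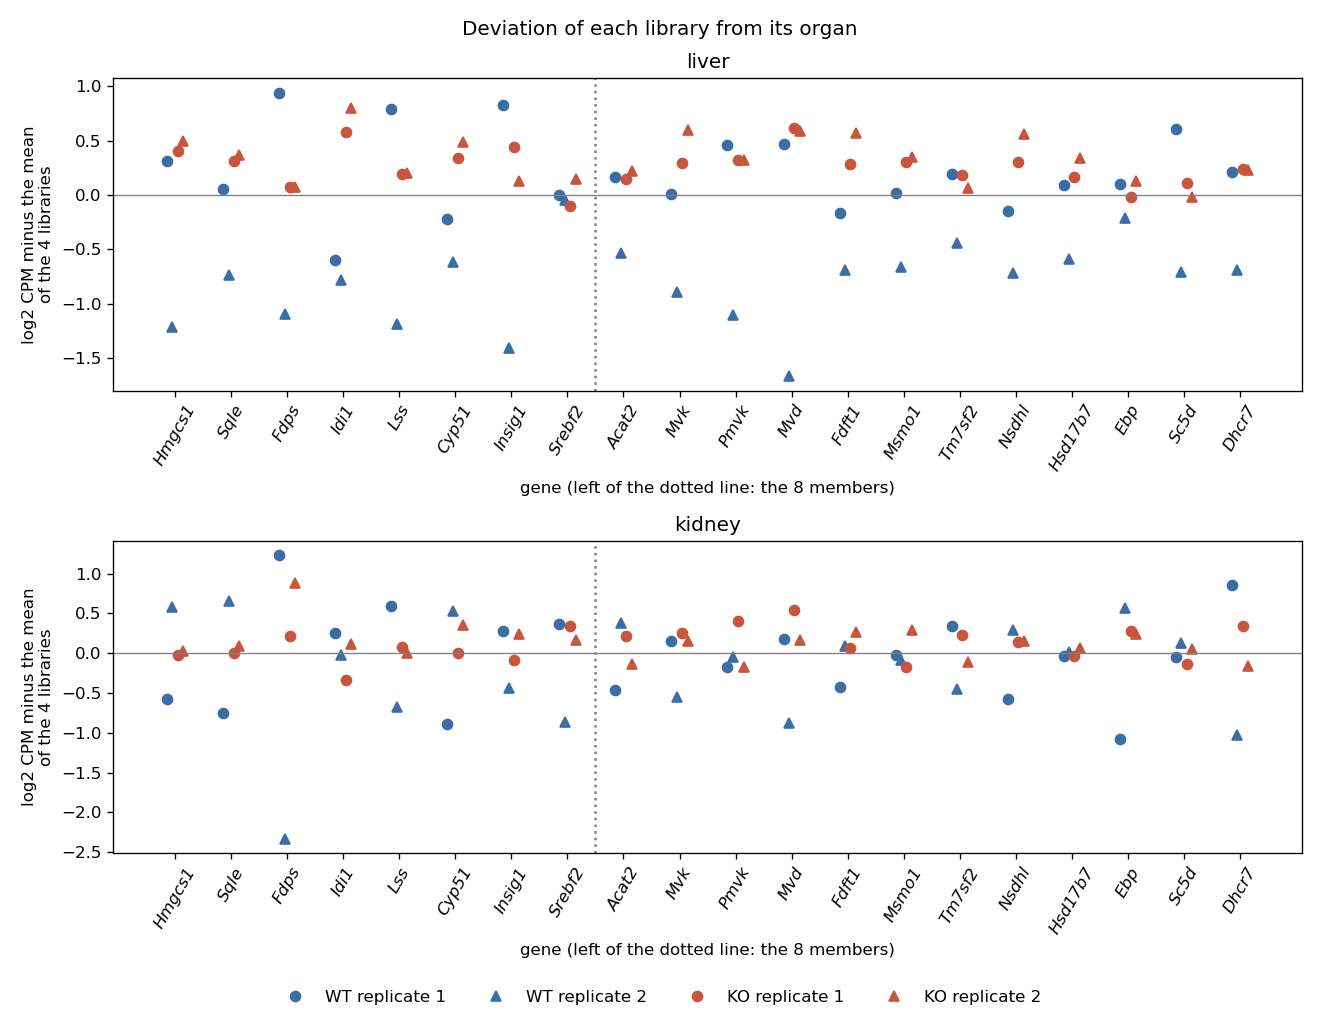
Log2 CPM of each liver and kidney library minus the mean of the 4 libraries of its organ, for the 8 members (left of the dotted line) and the 12 other enzymes. In the liver, WT 2 (blue triangles) is lowest for 7 members and 12 other enzymes, and in the kidney it is highest for 3 members and lowest for 4.

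In the small intestine, where the libraries split by number, KO against WT ran from −0.38 (SE 1.04) for Hmgcs1 to 0.21 (SE 0.51) for Insig1. Members were 3 above and 5 below 0, and none separated the genotypes, against 25.1% of all genes. Both libraries numbered 1 exceeded both numbered 2 for 7 members, so overlap of their genotypes does not bear on a KO effect. Within number 1, Hmgcs1 had 852.9 CPM in WT and 682.2 in KO, and Cyp51 had 382.1 in WT and 500.4 in KO. Within number 2, Hmgcs1 had 186.9 and 158.4 CPM and Cyp51 76.6 and 61.0 CPM. Cyp51 thus had opposite orders in the 2 numbers, as did Sqle, Insig1, and Srebf2. Hmgcs1, Idi1, and Lss were lower in KO within both numbers, and Fdps was higher in KO within both.

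In the heart, 7 members passed the filter on low counts and Fdps did not. Sqle had the highest value (0.35, SE 0.52), with 1.29 and 2.05 CPM in WT and 2.32 and 2.08 CPM in KO, and Insig1 the lowest (−0.31, SE 0.28), with 19.6 and 26.4 CPM in WT and 17.9 and 19.9 CPM in KO. The genotypes did not overlap in Sqle, by a narrow margin, and overlapped in Insig1. They did not overlap for 17.2% of all genes. The heart libraries also differed in atrial genes, which summed to 840.3, 1495, 81.1, and 530.9 CPM, and in adipocyte genes, which summed to 2.95, 222.1, 6.22, and 79.0 CPM. Whether these move with the members was not tested.

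With a genotype term shared by the organs, the log2 fold change ran from −0.05 (SE 0.33) for Lss to 0.19 (SE 0.32) for Cyp51, and no member was called (all genes 0.00432%). The interaction of genotype with organ called no member either (all genes 0%), and every member had an adjusted p of 1. Neither test gave a member an unadjusted p under 0.05. The higher liver and lower spleen values of Hmgcs1 and Cyp51 were therefore not shown to differ between the organs by this test.

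Few genes of related pathways passed the test of genotype. Among the lists of SREBP handling, isoprenoid synthesis, lipogenesis, cholesterol export, uptake and storage, fasting, the circadian clock, and proliferation, edgeR called only Mki67, a marker of cycling cells, which rose in the KO spleen (1.40, SE 0.17, adjusted p = 0.0711). In the liver, the 11 genes of SREBP1 and lipogenesis were 5 above and 6 below 0. Scd1, a fatty acid desaturase, was lowest (−1.22, SE 0.45, adjusted p = 0.983), with 11403, 5718, 4747, and 2461 CPM. Pnpla3 was highest (1.69, SE 1.13, adjusted p = 0.999), with 27.9, 2.21, 57.8, and 38.5 CPM and WT 2 far below the rest. Insig2, the other INSIG, had 277.4 and 382.9 CPM in WT and 415.5 and 516.2 CPM in the KO liver.

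Of the 7 genes of SREBP handling in the liver, 5 were above 0, from −0.26 (SE 0.20) for Mbtps2, a protease that releases SREBP, to 0.56 (SE 0.24) for Mmab. The isoprenoid branch ran from −0.39 (SE 0.26) for Pdss1 to 0.14 (SE 0.26) for Pdss2. The LXR and cholesterol export list ran from −0.26 (SE 0.20) for Lpcat3 to 0.38 (SE 0.22) for Nr1h3, and uptake and storage from −0.31 (SE 0.29) for Soat1 to 0.16 (SE 0.21) for Lipa. Clock genes were 3 above and 11 below 0, from −1.17 (SE 0.35) for Ciart to 1.24 (SE 0.41) for Arntl, and 3 had an unadjusted p under 0.05. Arntl, which drives the clock, had 3.52 and 1.79 CPM in WT and 5.24 and 7.36 CPM in the KO liver. Fasting genes ran from −0.83 (SE 0.30) for Ppargc1a to 0.89 (SE 0.58) for Fgf21. In these liver lists no adjusted p was under 0.947.

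Other organs showed the same absence of calls outside Mki67. The 12 other enzymes ran from −0.40 (SE 0.77) for Hsd17b7 to 0.38 (SE 0.73) for Nsdhl in the small intestine, and from −0.32 (SE 0.29) for Mvk to 0.18 (SE 0.21) for Nsdhl in the spleen. In the kidney they ran from −0.11 (SE 0.69) for Dhcr7 to 0.61 (SE 0.48) for Mvd, and 10 of 12 were above 0. The heart ran from −0.16 (SE 0.36) for Acat2 to 0.71 (SE 0.45) for Mvd. Abca1, a sterol exporter, had −1.59 (SE 0.35, adjusted p = 1) in the small intestine, the only gene of the LXR list there with an unadjusted p under 0.05.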

How the data were processed

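Counts were obtained for 20 libraries, which were grouped by the organ, genotype, and replicate number of the labels. The authors trimmed reads with cutadapt, mapped them with HISAT2 2.1.0, and counted exons of the Ensembl annotation of GRCm38 with featureCounts 2.0.1. They deposited raw counts per gene, and merged exon lengths (other than a measured value). The methods name strand and pair options that the stored command lacks, so reads of overlapping genes cannot be told apart by strand, and mates appear to have been counted separately. All per-sample columns were mapped to a sample.

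TMM normalization, filterByExpr, and robust quasi-likelihood tests used edgeR 4.0.16 in R 4.3.3, with Benjamini-Hochberg adjustment over all genes tested and a threshold of 0.1 for genotype and replicate number and 0.05 for organs. Each SE was obtained from the log2 fold change and its F statistic. TPM used the deposited lengths. Fits were tested on simulated data. Alternatives were DESeq2 1.42.0, other size factors, filters, thresholds, WT libraries only, a replicate block, and left-out libraries. P-values measure the spread between libraries. Overlap of genotypes was judged on CPM normalized over all libraries.

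Members, lists, and tests were chosen with earlier results of these data known. Every member is given. From other pathway lists, called genes, extremes, and enzymes of cholesterol synthesis are named, and genes singled out beyond these (Insig2, Scap, Arntl, Pdx1, Fabp6, and others given for their levels) were chosen after their values were seen. Some genes of the lists are not reported here, and list counts and sums leave them out. Python 3.11.15 with pandas 2.3.3 and matplotlib 3.10.9 was used for sequences and figures.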

Additional observations from a re-analysis of the deposited data

Results flagged for a closer look

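Hmgcs1 in the liver stood out because 1 of the 4 libraries lay far from the rest. The gap between liver WT 2 (342.8 CPM) and the next library (989.8 CPM) made up 0.8294 of the whole range of the 4 libraries, only just past the critical value of Dixon's test for 4 values. Of 40 such groups of 4 libraries, 8 members in 5 organs, this was the only one, and chance alone marks about 1 group in 20.

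Hmgcs1 and Cyp51 stood out because KO over WT had opposite signs in the liver and spleen, with no overlap of genotypes in either organ. Such separation was common, at 33% of everything tested for liver and 31.6% for spleen. By edgeR, neither member was called for genotype in these organs, whereas DESeq2 called Cyp51 in liver. The log2 fold change in the liver exceeded that in the spleen by 0.96 for Hmgcs1 and by 1.02 for Cyp51. The pairs of organs were not tested by themselves, and the test of interaction over all 5 organs gave an adjusted p of 1 for both. The log2 fold change in the liver was 0.17 without WT 2 and 1.65 without WT 1 for Hmgcs1, and 0.67 and 1.01 for Cyp51.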

How the results depend on the processing

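Most results kept their direction and side of the threshold. For 47 values of single members, 280 recomputed values under settings other than left-out libraries were compared with the main ones. Of these, 261 stayed on the same side and in the same direction and 10 reversed. Stricter thresholds were compared only for values called in the main test. No genotype value was called there, so for genotype the same side means still not called.

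In the liver, KO against WT called 0 members, but 2 without a filter on low counts (all genes 0.711%), 1 with at least 10 counts in every library (0.0777%), 2 by DESeq2 (0.402%), and 1 with the replicate number as a block (0.127%). The blocked call was Idi1, with an adjusted p of 0.0674. Without a filter, small intestine against liver called 7 (all genes 31.3%), spleen against kidney 5 (34.2%), and spleen against heart 4 members (35.5%). With WT libraries only, small intestine against liver called 1 (all genes 28.9%), small intestine against spleen 5 (27.4%), liver against kidney 2 (19%), and spleen against heart 1 (34.5%), with fewer libraries in the fit. The cause of these changes, including those with WT libraries only, was not tested.

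Leaving out each library in turn gave 0 to 7 members in the liver (all genes 0.0121% to 1.87%) and 0 to 5 in the kidney (0.00539% to 28.9%) for KO against WT, and 0 to 0 in the small intestine, spleen, and heart, over all organs, and for the interaction. It gave 4 to 7 for the numbers of the small intestine (3.82% to 7.18%), 1 to 7 for small intestine against liver (39.3% to 43.2%), 6 to 8 against spleen (42.5% to 47.6%), 3 to 6 against kidney (38.3% to 47.2%), and 8 to 8 against heart (47.1% to 50.2%). It gave 7 to 7 for liver against spleen (46.9% to 48.5%), 4 to 6 against kidney (28.1% to 37.8%), and 8 to 8 against heart (39.3% to 41.5%). It gave 2 to 4 for spleen against kidney (44.4% to 51.7%), 2 to 2 for spleen against heart (46.8% to 48.8%), and 3 to 6 for kidney against heart (31.8% to 39.1%). Where a group kept 1 library, it was assumed to vary like the others.

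With 1 library left out, the log2 fold change of KO over WT changed sign in 27 of the 39 tests of a member in an organ. In the heart it ran from −0.27 to 0.044 for Cyp51, −0.062 to 0.12 for Hmgcs1, −0.43 to 0.40 for Idi1, −0.73 to 0.33 for Lss, and −0.46 to 0.099 for Srebf2. In the kidney it ran from −0.32 to 1.08 for Cyp51, −0.64 to 2.90 for Fdps, −0.56 to 0.58 for Hmgcs1, −0.20 to 0.54 for Insig1, −0.56 to 0.74 for Lss, −0.59 to 0.80 for Sqle, and −0.11 to 1.14 for Srebf2. In the liver it ran from −0.83 to 1.14 for Fdps, −0.50 to 1.69 for Insig1, −0.56 to 1.37 for Lss, and −0.042 to 0.14 for Srebf2. In the spleen it ran from −0.51 to 0.057 for Idi1, −0.15 to 0.036 for Lss, and −0.27 to 0.082 for Srebf2. In the small intestine it ran from −1.93 to 1.79 for Cyp51, −2.89 to 3.03 for Fdps, −1.73 to 1.09 for Hmgcs1, −2.92 to 1.45 for Idi1, −0.48 to 0.67 for Insig1, −1.99 to 1.48 for Lss, −2.29 to 1.93 for Sqle, and −0.68 to 0.61 for Srebf2.

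In 1 fit of all libraries, Sqle (0.014) and Fdps (0.010) turned above 0 in the small intestine and Idi1 (0.0062) in the heart, as Idi1 did there with other size factors (0.011) and DESeq2 (0.0099).

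Replicate numbers are shared by label only. The differences between numbers in WT and KO correlated across genes with r of 0.568 in the small intestine, 0.363 in the heart, 0.123 in the kidney, 0.0383 in the liver, and 0.00503 in the spleen. With the replicate block, Fdps had 0.053 and Cyp51 −0.023 in the small intestine, Fdps 0.13 in the liver, and Sqle 0.089 and Lss 0.072 in the kidney, all of which changed sign without a call, and the block changed no call of a member but that of Idi1 in the liver.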
